A study of Rattus norvegicus with 14 samples.

Results

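The myelin genes Mbp and Cnp held 38 of the 4993 transcription start sites (TSSs) quantified in rat sciatic nerve and Schwann cells, 8 for Mbp and 30 for Cnp. They were chosen by gene symbol alone, so every TSS assigned to either gene was included whatever its level, and 2993 gene symbols were represented in all. RNA 5′ ends were sequenced by Tn5Prime, a method that tags the 5′ end of cDNA, and each TSS carries a level in RPM, reads per 1000000 library reads, in 14 libraries. The study asked which Schwann cell promoters are bound by the transcription factor SOX10 and depend on it. The sciatic nerve group comprised 2 nerves of adult wild-type rats aged 6 to 9 months. The control and cAMP groups comprised 3 libraries each of purchased rat primary Schwann cells, expanded with neuregulin and forskolin and then kept in 5% FBS with vehicle or with 250 μM of the cyclic AMP analogue CPT-cAMP for 3 days. The parental group comprised 2 RNA samples of wild-type S16 cells, an immortalized rat Schwann cell line, in 10% FBS. The ΔSOX10 group comprised 4 S16 clones, also in 10% FBS, in which CRISPR/Cas9 had left only frameshift alleles in the first coding exon of Sox10. The 4 clones derive from 2 guide RNAs, so some share a guide, and the fits treat them as separate replicates. Each clone gave 1 library, they are named here 1-1, 1-2, 2-1 and 2-2 after their labels, and the parental samples come from the single unedited line. The candidate TSSs were defined in sciatic nerve and lie within 1 kb of an H3K4me3 peak that overlaps a SOX10 peak there, so the presence of all 38 in nerve follows from how the list was made.

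Myelin basic protein, encoded by Mbp, binds the cytoplasmic faces of the myelin membrane and holds them together in compact myelin. The Cnp product is a cyclic nucleotide phosphodiesterase of non-compact myelin that helps keep cytoplasmic channels in the sheath open. Both genes are known for alternative promoters, with far-upstream starts of Mbp giving the golli transcripts and a pair of neighbouring Cnp promoters giving protein isoforms that differ at the N terminus. SOX10 drives the glial programme, including the factor Egr2, and cyclic AMP analogues are used in culture to move Schwann cells toward a myelinating state.

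RefSeq promoter windows of both genes are shown because SOX10 and cyclic AMP are the factors varied in the study. Each window holds the 250 bases before an annotated start on the plus strand of GRCr8, 5′ to 3′. The levels use the older build rn5, and which rn5 TSS corresponds to which GRCr8 start was not determined. Capitals mark matches on either strand to the SOX core ACAAAG, to its variant ACAATG, to the form TCAAAG, to the form TCAATG, or to TGACG, the core of the cyclic AMP response element.
Mbp window 1, chr18:78130402-78130651: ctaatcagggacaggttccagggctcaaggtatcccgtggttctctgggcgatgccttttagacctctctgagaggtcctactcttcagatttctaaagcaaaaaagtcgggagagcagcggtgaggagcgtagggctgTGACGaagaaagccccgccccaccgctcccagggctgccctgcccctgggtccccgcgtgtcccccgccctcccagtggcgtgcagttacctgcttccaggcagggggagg
Mbp window 2, chr18:78209995-78210244: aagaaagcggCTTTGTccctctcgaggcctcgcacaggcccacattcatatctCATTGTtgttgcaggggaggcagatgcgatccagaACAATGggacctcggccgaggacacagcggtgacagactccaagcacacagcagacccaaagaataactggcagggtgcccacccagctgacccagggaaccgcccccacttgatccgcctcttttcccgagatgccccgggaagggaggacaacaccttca
Cnp window, chr10:86011254-86011503: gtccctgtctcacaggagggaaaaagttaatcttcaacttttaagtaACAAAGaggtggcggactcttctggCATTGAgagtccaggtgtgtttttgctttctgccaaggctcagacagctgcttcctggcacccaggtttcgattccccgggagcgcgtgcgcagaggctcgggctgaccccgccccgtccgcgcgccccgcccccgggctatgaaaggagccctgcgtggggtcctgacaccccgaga

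The Mbp windows lie 79593 bp apart. The first held no SOX core and 1 TGACG, on the plus strand with its first base 111 bases before the start. The second held 3 SOX cores, ACAATG on the plus strand 162 bases before the start, and ACAATG and ACAAAG on the minus strand 197 and 240 bases before it. The Cnp window held ACAAAG on the plus strand 203 bases before the start and TCAATG on the minus strand 178 bases before it. Such matches were frequent, since 39.95% of the 33469 RefSeq windows of this length held at least 1 of the 4 SOX cores and 18.2% held TGACG. None of the 3 windows held TATAAA, present in 12.9% of all windows, or the full TGACGTCA, present in 1.59% and overlapping TGACG. The absence of a match says only that these letters are not in the window.

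The 8 Mbp TSSs occupied 1693 bp of the plus strand on chromosome 18, chr18:78473126-78474818 in rn5. They are numbered from the upstream end, as are those of Cnp. Mbp TSS 3, chr18:78473273-78473367, was 95 bp wide, and the median width of the 8 was 3.5 bp. Its neighbour Mbp TSS 2, chr18:78473253-78473254, lay 20 bp upstream, and Mbp TSS 4 occupied chr18:78473498-78473500. Of the 8, 5 fell in a SOX10 peak of sciatic nerve, 1200 bp long, and all 8 in an H3K4me3 peak, the histone mark of active promoters. The 30 Cnp TSSs occupied 6368 bp of the plus strand on chromosome 10, chr10:88284002-88290369. Cnp TSS 1, chr10:88284002-88284046, was the upstream start, and Cnp TSS 2, chr10:88284861-88284975, began 859 bp downstream of it. A further 4 TSSs lay within 2000 bp of TSS 1, among them TSS 3 at chr10:88285310-88285345. The other 24, here called distal, began 3914 to 6360 bp downstream, from TSS 7 at chr10:88287916-88287978 to TSS 30 at chr10:88290362-88290369. The SOX10 peak, 2000 bp long, held the first 6 Cnp TSSs and none of the distal ones, and the H3K4me3 peak held 29, with TSS 30 lying 77 bp outside it. Of all 4993 TSSs, 51.7% fell in a SOX10 peak, a share fixed largely by how candidates were chosen. The median width over all TSSs was 57 bp, above the median of 3.5 bp for Mbp and 4.5 bp for Cnp.

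**Figure D1:**
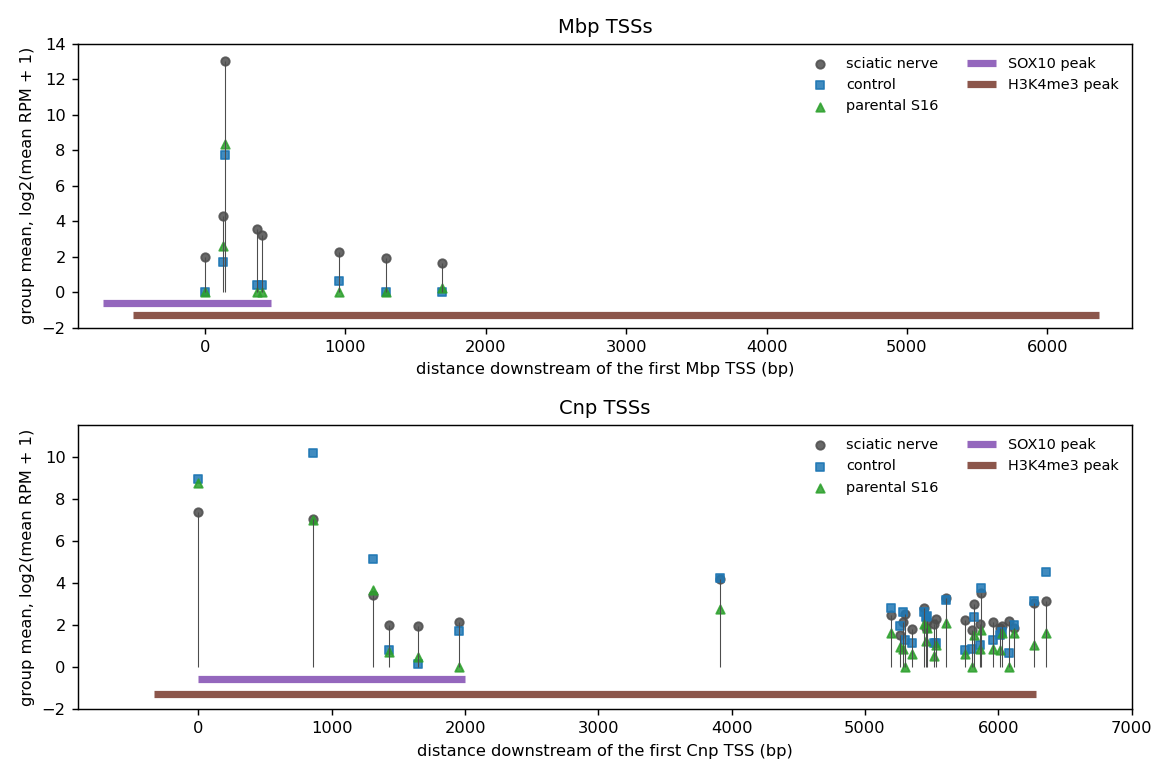
Distance of each TSS downstream of the first TSS of its gene in bp (x axis) against its mean level as log2(mean RPM + 1) (y axis) in sciatic nerve (circles), control (squares) and parental S16 cells (triangles), with the SOX10 and H3K4me3 peaks as bars under the points. Mbp shows a single high position at TSS 3, and Cnp shows 2 high positions 859 bp apart and a group of 24 low ones farther downstream.

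Sequencing depth ranged from 29895599 to 79940274 reads per library, and the candidate TSSs held 28.7 to 37.0% of them. A floor of 3 reads corresponded to 0.0375 to 0.1 RPM, which covers counting error only, since no molecular identifiers are named in the sources used here. The Sox10 TSS stood at 90.7 and 77.5 RPM in the parental S16 libraries and at 0.0255, 0.0254, 0 and 0.114 RPM in clones 1-1, 1-2, 2-1 and 2-2. The edits lie in the coding exon and not at the TSS, so this level does not itself test the alleles. Sox10 did not pass the test between cAMP and control cells (log2 fold change -0.17, adjusted p = 0.353, limma). The summed level of 4 Schwann cell markers, Sox10, S100b, Erbb3 and Ngfr, spanned 1608 to 1942 RPM in nerve, 4597 to 4790.0 RPM in the control group, 2510.0 to 2605 RPM with cAMP, 1034 to 1066 RPM in parental S16 cells and 7.44 to 17.4 RPM in ΔSOX10 clones. The 2 fibroblast markers present of 6, Col1a1 and Pdgfra, summed to 134 to 138 RPM in nerve, 803 to 909 RPM in control, 370 to 466 RPM in cAMP, 2255 to 2829 RPM in parental and 2971 to 5302 RPM in ΔSOX10 libraries. Of 5 macrophage markers only Csf1r was in the table, at 1.07 to 4.82 RPM in nerve, 0 in the other unedited libraries and at most 0.966 RPM in the clones, and no endothelial, neuronal or oligodendrocyte marker of 5 each was in it. In nerve and primary cultures, fewer Schwann cells and less RNA per cell cannot be told apart in bulk samples. The S16 samples and clones come from a single cell line. The paper counts all 4 Schwann cell markers among genes reduced with SOX10 loss, so in the clones their sum does not measure cell content. It also lists Ngfr among genes with TSSs lowered by cAMP treatment, so the sum does not measure cell content between control and cAMP cells either. The part of these markers in the results below was not tested. Nerve and S16 libraries were run on another instrument than those of primary cells, so nerve, primary cells and S16 cells are described side by side without a test.

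Gene totals here sum the listed TSSs only, and starts elsewhere at either gene were not covered. Of the listed Mbp TSSs, TSS 3 carried nearly all of the level in every library but that of clone 1-1. It reached 10142 and 6615 RPM in the sciatic nerves. In primary cells it stood at 194, 212 and 239 RPM with vehicle, at 1490.4, 1178 and 1340.1 RPM with CPT-cAMP and at 356 and 288 RPM in parental S16 cells. In the ΔSOX10 clones 1-1, 1-2, 2-1 and 2-2 it stood at 3.52, 2.24, 1.56 and 4.36 RPM. Every cAMP library was above every control library, both nerves were above all cultured cells, and every clone was below both parental samples. By group mean among the 4993 TSSs, Mbp TSS 3 ranked 5th in nerve, 313th in control, 38th in cAMP, 200th in parental and 2912th in ΔSOX10 libraries.

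The remaining Mbp TSSs were minor. TSS 2 reached 12.6 and 24.1 RPM in nerve, 0, 2.96 and 3.65 RPM in control libraries, and 5.63, 10.4 and 8.35 RPM with cAMP. It gave 1.65 and 8.42 RPM in parental S16 cells and was detected in 1 of 4 clones, 1-1, at 1.22 RPM from 48 reads. TSS 4 reached 16.6 and 5.03 RPM in nerve, at most 0.932 RPM with vehicle, 1.36, 4.80 and 0.0293 RPM with CPT-cAMP, and 0 in all 6 S16 libraries. The other 5 Mbp TSSs had nerve means of 2.12 to 8.35 RPM and means of at most 1.46 RPM in any cultured group. Beside a gene total of 10199 and 6656 RPM, TSS 3 made up 99.4% in each nerve. Its share was 97.7 to 99.1% in control, 98.4 to 99.4% in cAMP, and 99.4 and 97.2% in parental libraries. In clone 1-1 it was 74.2%, with TSS 2 making up the rest, at a gene total of 4.74 RPM. In the other 3 clones all reads of the listed Mbp TSSs came from TSS 3, at gene totals of 1.56 to 4.36 RPM. Of 689 genes with more than 1 TSS, 7 had a main TSS with a larger share in nerve than that of Mbp, and the median share was 82.1%.

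Most of the summed level of the listed Cnp TSSs came from TSS 1 and TSS 2, and their balance differed between the samples. TSS 1 reached 168 and 157 RPM in nerve, 459, 483 and 529.8 RPM in control, 419, 375 and 397 RPM in cAMP, and 468 and 400.2 RPM in parental libraries. It stood at 43.4, 44.6, 35.6 and 44.1 RPM in the clones. All cAMP libraries were below all control libraries, and all clones were below both parental samples. TSS 2 reached 139 and 118 RPM in nerve, 1165, 1143 and 1125 RPM in control, 1372, 1270.1 and 1274 RPM in cAMP, and 138 and 114 RPM in parental libraries. In the clones it stood at 0.764 RPM from 30 reads, 0 RPM, 1.26 RPM from 46 reads and 0.0285 RPM from 1 read. TSS 2 was thus the higher of the pair in all 6 primary cell libraries and the lower in nerve and all S16 libraries. By group mean, TSS 2 ranked 283rd in nerve, 44th in control, 40th in cAMP, 476th in parental and 3749th in ΔSOX10 libraries, and TSS 1 ranked 235th, 134th, 165th, 161st and 961st.

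TSS 3 of Cnp was lower, at 13.5 and 6.12 RPM in nerve, 33.6, 37.4 and 32.2 RPM in control and 29.5, 23.1 and 31.9 RPM in cAMP libraries. It gave 10.5 and 12.9 RPM in parental libraries and 1.07 RPM from 42 reads, 0, 0.0273 and 0.0285 RPM in the clones. The distal TSSs were each small but numerous. Their summed level was 119.6 and 116 RPM in nerve, 90.5 to 131 RPM in control and 105 to 125 RPM in cAMP libraries. It was 47.2 and 25.2 RPM in parental and 3.91 to 5.12 RPM in ΔSOX10 libraries. The nerve, control and cAMP ranges overlapped, and both parental samples lay below them and above the clones. TSS 7, the first of them, reached 19.2 and 14.5 RPM in nerve and between 7.91 and 25.8 RPM in primary cells. TSS 23 reached 13.2 and 7.56 RPM in nerve, and TSS 30 reached 9.67 and 5.91 RPM in nerve and 14.5 to 25.4 RPM in primary cells. The 21 distal TSSs not named by level had group means of 1.89 to 8.59 RPM in nerve, 0.580 to 8.0 RPM in control, 0.00417 to 8.40 RPM in cAMP, 0 to 3.30 RPM in parental and 0 to 0.854 RPM in ΔSOX10 libraries. The 3 further TSSs near the main starts had means of at most 3.42 RPM in any group.

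**Figure D2:**
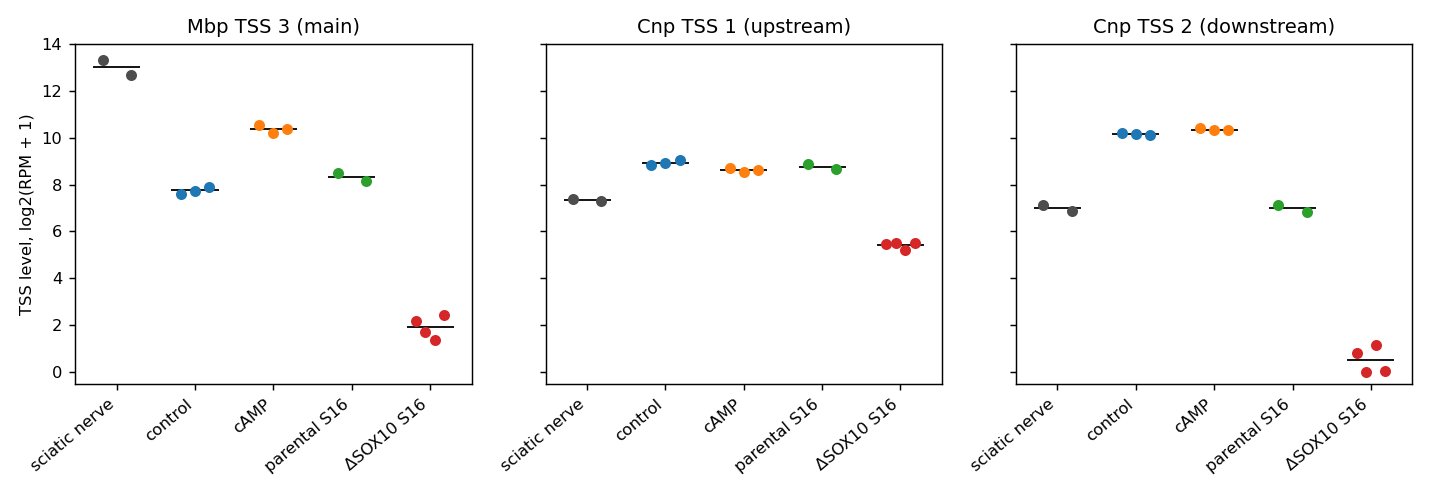
Level of the main TSSs in each of the 14 libraries (points, log2(RPM + 1), y axis) for the 5 groups (x axis), for Mbp TSS 3, Cnp TSS 1 and Cnp TSS 2, with horizontal bars at group means. Mbp TSS 3 is highest in nerve and lies between 1178 and 1490.4 RPM in cAMP cells, whereas Cnp TSS 2 is highest in primary cells and at most 1.26 RPM in the ΔSOX10 clones.

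The number of TSSs with a group mean above 1 RPM was 8 of 8 for Mbp in nerve, 2 in control, 4 in cAMP, 2 in parental and 1 in ΔSOX10 libraries. For Cnp it was 30 of 30 in nerve, 25 in each of the control and cAMP groups, 16 in parental and 1 in ΔSOX10 libraries, the last being TSS 1. In the clones, 6 Mbp and 17 Cnp TSSs were at 0 in all 4 libraries. For scale, Cnp TSS 7 ranked 3603rd of 4993 in the clones at a mean of 0.719 RPM. All TSSs with a mean of 0 there shared rank 4263, so most TSSs were above 0. The share of all TSSs above 1 RPM in each group was not counted. Against the rest of the table Cnp was rich in TSSs, since only 4 genes had more than 30, the median was 1, and 32 genes had more than the 8 of Mbp.

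Expressed as a share of the gene total, Cnp TSS 1 made up 37.7 and 38.2% in nerve, 25.6, 26.9 and 29.8% in control, and 21.7, 21.0 and 21.7% in cAMP libraries. It made up 70.6 and 72.2% in parental libraries and 86.2, 91.9, 87.1 and 90.6% in the clones. No 2 groups overlapped in this share. TSS 2 made up 31.3 and 28.7% in nerve, 65.1, 63.6 and 63.3% in control, 71.2, 70.9 and 69.5% in cAMP, and 20.7 and 20.6% in parental libraries. In the clones its share was 1.52, 0, 3.07 and 0.0585%, while the distal TSSs together made up 8.06 to 10.2%. Distal TSSs had their largest share in nerve, at 26.9 and 28.2% of the Cnp total. In control, cAMP and parental libraries it was 4.55 to 7.29%. Their summed level averaged 117.8 RPM in nerve, 115.8 RPM in control and 116.4 RPM in cAMP libraries. Against control and cAMP the larger share thus rests on the lower Cnp total in nerve. The list was drawn from nerve, which favours TSSs seen there, and whether the distal TSSs are promoter starts was not tested. The largest Cnp share of a single TSS in nerve was exceeded by the main TSS of 673 of the 689 genes with several TSSs.

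**Figure D3:**
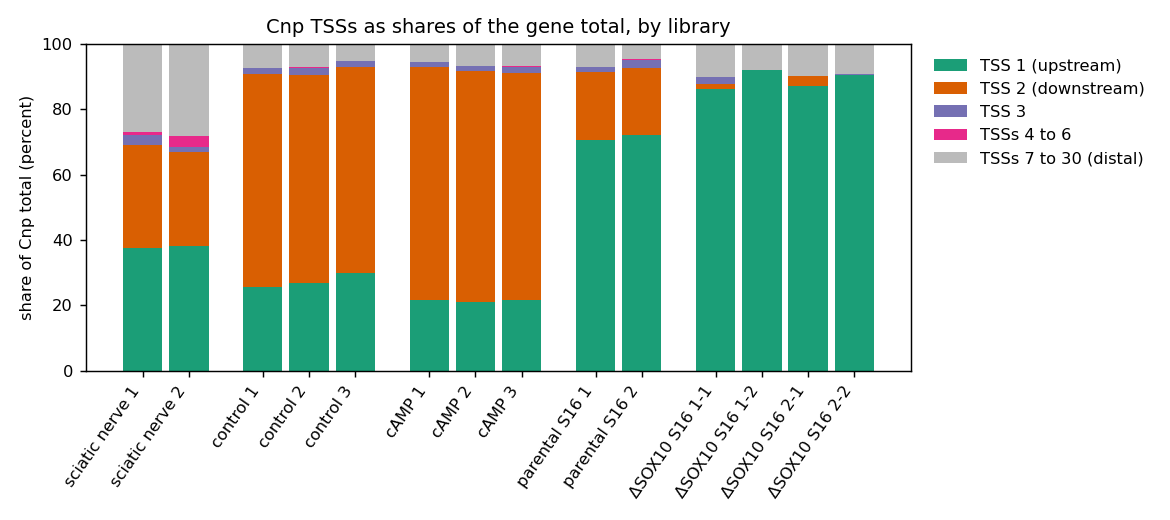
Share of the Cnp total in percent (y axis) given by TSS 1, TSS 2, TSS 3, TSSs 4 to 6 and the distal TSSs 7 to 30, stacked for each of the 14 libraries (x axis, grouped). TSS 1 spans 21.0 to 29.8% in primary cells, 37.7 and 38.2% in nerve and 86.2 to 91.9% in the ΔSOX10 clones.

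The comparison of cAMP with control cells addresses the change of TSS use as Schwann cells move toward the myelinating state. Mbp TSS 3 rose 6.22-fold, whereas the Cnp total did not pass the test, with a small fall at Cnp TSS 1 and a small rise at Cnp TSS 2. Fold changes were fitted by limma on log2(RPM + 1), which understates changes of low TSSs, and p-values were adjusted over all TSSs tested. Mbp TSS 3 had a log2 fold change of 2.63 (SE 0.09, adjusted p = 2.18e-15, n = 3 and 3), which ranked 91st from the highest of 4119 TSSs. Mbp TSS 2 rose by 1.75 on the log2 scale (SE 0.59, adjusted p = 0.0327), from means that differed 3.69-fold. Limma lost this call when any 1 of the 3 cAMP libraries or control replicate 1 was left out, and none of the 3 count tests made it. Mbp TSS 4 had a log2 fold change of 0.96 and did not pass (adjusted p = 0.352).

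Cnp TSS 1 fell by 0.30 on the log2 scale (SE 0.09, adjusted p = 0.0117 by limma), or to 0.809 of the control level. The call was lost without cAMP replicate 2 (adjusted p = 0.0640) or control replicate 3 (adjusted p = 0.0853). Cnp TSS 2 rose by 0.19 on the log2 scale (SE 0.06, adjusted p = 0.0262 by limma), or 1.141-fold, and this call was lost without cAMP replicate 1 or any 1 of the 3 control libraries (adjusted p of 0.0542 to 0.0991). Both shifts were small. Neither level overlapped between control and cAMP libraries, but that of Cnp TSS 3, which did not pass, did not overlap either. The share of all TSSs without overlap was not counted. Cnp TSS 3 (-0.29, adjusted p = 0.424), TSS 7 (-0.08, adjusted p = 0.913), TSS 23 (-0.69, adjusted p = 0.402) and TSS 30 (-0.14, adjusted p = 0.798) did not pass, and the sign of the last 3 depended on single libraries. Among TSSs outside the naming rule, singled out after its values were seen, Cnp TSS 12 rose by 1.63 (SE 0.59, adjusted p = 0.0482 by limma) from 2.5, 1.15 and 0 RPM to 8.13, 3.92 and 4.00 RPM. This call was lost in each of the 3 count tests (adjusted p of 0.155 to 0.384), without a filter (adjusted p = 0.0807) and when any 1 of the 3 cAMP libraries or control replicate 2 or 3 was left out (adjusted p of 0.0846 to 0.204).

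Of the 38 TSSs, 35 passed the filter of more than 1 RPM in at least 2 libraries, 5 of Mbp and 30 of Cnp. Among them 4 rose, 2 of each gene, 1 of Cnp fell and 30 did not pass. With 1 library left out, 1 to 3 rose, the lowest count being that without cAMP replicate 1, and 0 or 1 fell. Over all 4119 TSSs tested, 12.9% rose and 11% fell. The median log2 fold change was 0.96 over the 5 Mbp TSSs and 0.05 over all 35, beside 0.02 over all TSSs tested. Summed per gene, Mbp averaged 218 ± 23.9 RPM in control and 1349 ± 151 RPM in cAMP libraries (SD, n = 3 each). Its log2 fold change was 2.62 (SE 0.09, adjusted p = 3.22e-17, limma), where 14.6% of 2853 genes rose and 14.7% fell. Cnp went from 1788 ± 10.1 to 1849.9 ± 69.7 RPM, a log2 fold change of 0.05 (SE 0.05, 95% interval -0.06 to 0.16, adjusted p = 0.571). The Mbp to Cnp ratio of totals was 0.109, 0.121 and 0.137 in control and 0.778, 0.668 and 0.738 in cAMP libraries. The difference of its log2 was 2.57 with no overlap (two-sided exact permutation p = 0.1, the smallest that 3 against 3 libraries allow).

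The ratio of Cnp TSS 2 to TSS 1 was 2.54, 2.36 and 2.12 in control cells and 3.28, 3.38 and 3.21 in cAMP cells. On the log2(RPM + 1) scale it went from 1.22 ± 0.13 to 1.72 ± 0.04 (SD, n = 3 each), a difference of 0.49 with no overlap (two-sided exact permutation p = 0.1, again the smallest possible). The test over the 2 main TSSs of all 460 such genes, added after the data had been seen, gave an SE of 0.31 and a 95% interval of -0.22 to 1.21 (adjusted p = 0.449, limma), where 5.43% of genes were called. Its SE is pooled with that of other genes and exceeds the spread seen among these 6 libraries. The test of unequal use of the TSSs within a gene, which pools the spread over all tested TSSs of that gene, called neither Mbp (adjusted p = 0.301, 5 TSSs) nor Cnp (adjusted p = 0.707, 30 TSSs), where 8.48% of 460 genes passed. Per TSS it called 4.3% of 1535, with none from Mbp or Cnp. Mbp TSS 3 against the other Mbp TSSs differed by 1.78 on the log2 scale (adjusted p = 0.184), and Cnp TSS 1 and TSS 2 by -0.38 and 0.13 (adjusted p = 0.913 and 0.969).

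**Figure D4:**
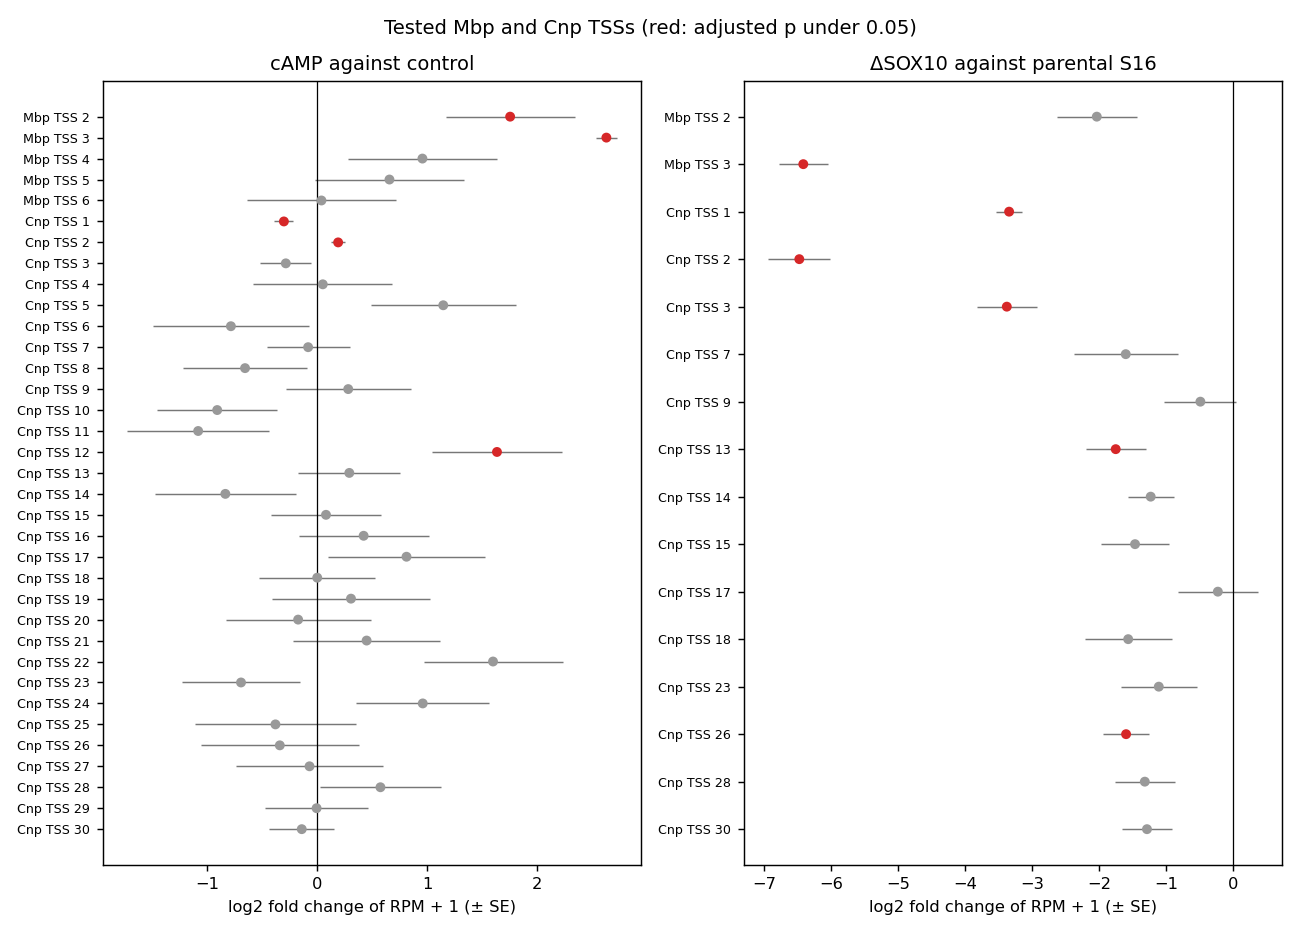
Log2 fold change of RPM + 1 (x axis) with its SE (bars) for each tested Mbp and Cnp TSS (y axis), for cAMP against control cells and for ΔSOX10 against parental S16 cells, red where the adjusted p was under 0.05. Mbp TSS 3 stands at 2.63 and -6.41, and Cnp TSS 2 at 0.19 and -6.47.

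The comparison of ΔSOX10 clones with parental S16 cells addresses the dependence of each TSS on SOX10. The clones also went through transfection, puromycin selection and single-cell cloning, and the unmodified parental cells did not. Effects of these steps cannot be told apart from those of SOX10 loss. Mbp TSS 3 fell 110-fold and Cnp TSS 2 fell 246-fold between group means, whereas Cnp TSS 1 fell 10.3-fold and remained at 35.6 to 44.6 RPM in every clone. Cnp TSS 2 fell by 6.47 on the log2 scale (SE 0.46, adjusted p = 4.71e-05, n = 2 and 4), the 8th lowest of 3875 TSSs. Mbp TSS 3 fell by 6.41 (SE 0.37, adjusted p = 1.54e-05), the 11th lowest, and Cnp TSS 1 fell by 3.34 (SE 0.19, adjusted p = 1.54e-05), the 77th lowest. Cnp TSS 3 fell by 3.38 (SE 0.45, adjusted p = 0.00160), or 41.5-fold between means.

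Beyond these, 2 distal Cnp TSSs outside the naming rule fell and are named after their values were seen. TSS 13 went from 4.48 and 1.76 RPM to 0, 0.0254, 0 and 0.741 RPM (log2 fold change -1.75, SE 0.45, adjusted p = 0.0477, limma). That call was lost in each of the 3 count tests (adjusted p of 0.306 to 0.398), under TMM scaling (adjusted p = 0.0542) and without clone 1-1, 1-2 or 2-1 (adjusted p of 0.0950 to 0.114). TSS 26 went from 1.76 and 2.31 RPM to 0 in all 4 clones (log2 fold change -1.60, SE 0.34, adjusted p = 0.0212, limma). With the clones set at a floor of 3 reads per library it was 23.8-fold lower. That floor covers counting error only, so the value is no lower limit. TSS 26 passed the filter through the parental samples alone, and its call was lost by edgeR quasi-likelihood (adjusted p = 0.0910). The call was also lost with all 14 libraries in one model (adjusted p = 0.229) and without clone 1-1, 1-2 or 2-1 (adjusted p of 0.0535 to 0.0659). The edgeR exact test and DESeq2 did call TSS 26. Without either parental sample neither TSS passed the filter. Mbp TSS 2 (-2.03, adjusted p = 0.0755), Cnp TSS 7 (-1.60, adjusted p = 0.307), Cnp TSS 23 (-1.11, adjusted p = 0.342) and Cnp TSS 30 (-1.28, adjusted p = 0.0716) did not pass. Under single alternatives limma called Cnp TSS 30 without a filter (adjusted p = 0.0323) and Mbp TSS 2 with all 14 libraries in one model (adjusted p = 0.0433). Cnp TSS 7 spanned 0.804 to 10.8 RPM in the parental samples and 0 to 2.21 RPM in the clones. TSS 23 gave 3.66 and 0.959 RPM against 0.331, 1.91, 0 and 0 RPM, and so overlapped, whereas TSS 30 gave 1.6 and 2.57 RPM against at most 0.381 RPM.

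Of the 38 TSSs, 16 passed the filter, 2 of Mbp and 14 of Cnp, a set that the parental level largely decides. Of these 6 fell, none rose and 10 did not pass, beside 6.55% that fell and 1.65% that rose among the 3875 TSSs tested. With 1 library left out, 4 to 8 fell, the lowest count being that without either parental sample, clone 1-2 or clone 2-1. The edgeR quasi-likelihood, edgeR exact and DESeq2 tests on recovered reads called 0 of them higher, and limma also called 0 higher at an unadjusted p under 0.05. All 16 fitted values were below 0, from -6.47 to -0.23. That sign was favoured in advance, because few of these TSSs were above 1 RPM in 2 clones, and nothing was read from it. Nothing was read from their median either, which the filter and the pseudocount also shape. It was -1.58, or -1.68 with TSSs absent from all clones set at the floor of 3 reads, beside -0.18 over all TSSs tested. Scaling by TMM moved the latter by 0.13 to -0.05 and the split of all calls to 92 higher and 227 lower, from 64 and 254. Summed per gene, Mbp went from 327 ± 43.5 to 3.23 ± 1.56 RPM (SD, n = 2 and 4), a log2 fold change of -6.35 (SE 0.40, adjusted p = 1.49e-06, limma). Cnp went from 609 ± 76.9 to 47.1 ± 4.24 RPM, a log2 fold change of -3.66 (SE 0.20, adjusted p = 5.17e-07), where 5.92% of 2787 genes fell and 2.3% rose. Their ratio, Mbp to Cnp, went from 0.540 and 0.534 to 0.0941, 0.0461, 0.0381 and 0.0896, a log2 difference of -2.69 with no overlap (two-sided exact permutation p = 0.0667, the smallest that 2 against 4 libraries allow).

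Within Cnp the fall was unequal between starts. The ratio of TSS 2 to TSS 1 was 0.294 and 0.286 in the parental samples and 0.0176, 0, 0.0353 and 0.000646 in the clones. On the log2(RPM + 1) scale it fell by 3.13, from -1.78 to -4.91, with no overlap (two-sided exact permutation p = 0.0667, the smallest possible). The test of the 2 main TSSs over 417 genes gave an SE of 0.50 and a 95% interval of -4.30 to -1.97 (adjusted p = 0.0118, limma, rank 11 of 417), where 3.6% of genes were called. Because TSS 2 was close to 0 in the clones, the size of this difference depended on the pseudocount, at -5.12 with 0.1 and -1.35 with 5 RPM.

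The test of unequal use within a gene called Cnp (adjusted p = 5.16e-08, 14 TSSs, limma), where 4.8% of 417 genes passed. Nothing was read from that call, because only Cnp TSS 1 had a mean above 1 RPM in the clones and the pseudocount limits the fall of the others. Nor was anything read from the test for Mbp, whose second tested start, TSS 2, was at 0 in 3 of 4 clones. Per TSS, where 5.27% of 1366 passed, Cnp TSS 2 fell by 4.91 relative to the other Cnp TSSs on the log2 scale (adjusted p = 2.24e-10). Many of those are also close to 0 in the clones, and with a mean of at least 5 RPM required the relative fall was the 3.13 of the ratio to TSS 1 (adjusted p = 0.000618). Cnp TSS 1 (-1.54, adjusted p = 0.111) and TSS 3 (-1.57, adjusted p = 0.0970) did not pass, and the relative change of TSS 1 changed sign with the filter and the pseudocount.

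**Figure D5:**
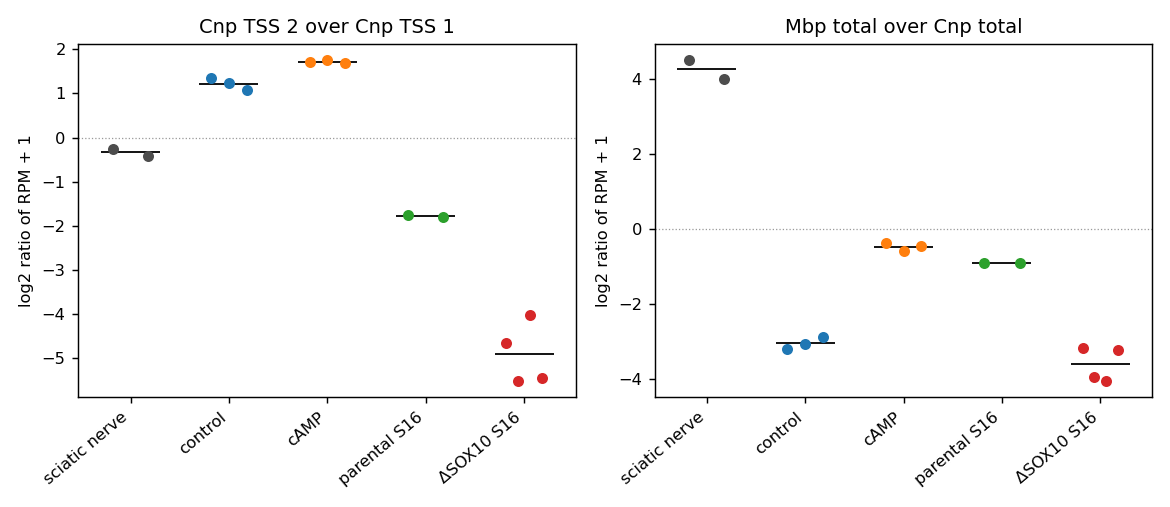
Log2 ratio of RPM + 1 in each library (points, y axis) for the 5 groups (x axis), Cnp TSS 2 over Cnp TSS 1 and Mbp total over Cnp total, with horizontal bars at group means. The Cnp ratio lies above 0 in all 6 primary cell libraries and averages -4.91 in the clones, and the Mbp to Cnp ratio is highest in the 2 nerves.

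The 3 cell sources held the starts in different proportions, described here without a test. The Cnp ratio of TSS 2 to TSS 1 was 0.831 and 0.750 in nerve, between the S16 and primary cell values. The Mbp to Cnp ratio of totals was 22.9 and 16.2 in nerve, above every cultured library. Gene totals in nerve averaged 8428 ± 2505 RPM for Mbp and 428 ± 23.7 RPM for Cnp (SD, n = 2), so that Cnp was lower in nerve than in control, cAMP and parental libraries while Mbp was higher. Tissue and cell source and culture cannot be told apart in these differences, nor can instrument where primary cells are compared with nerve or S16 cells.

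Other myelin genes were read from lists chosen with earlier results of these data known, each gene by its TSS with the highest level in nerve and with p-values adjusted over all TSSs. The counts stand beside 12.9% of all TSSs that rose and 11% that fell with cAMP, and 1.65% and 6.55% in the clones, and each list's median beside -0.03 with cAMP and -0.17 in the clones over such TSSs of all genes. Of 8 genes considered for myelin membrane proteins, mainly of compact myelin, 6 were used. They included Ncmap, which is named for non-compact myelin. With cAMP 5 of the 6 rose and none fell. Their median log2 fold change was 4.86 (5.63 with Ncmap, at 0 in all controls, set at the floor of 3 reads). Mal, a membrane raft protein of myelin, rose by 8.36 (SE 0.29, adjusted p = 1.12e-15) from a mean of 0.122 to 371 RPM. Bcas1, a marker of cells forming myelin, rose by 6.99 from 0.0551 to 134 RPM, and Pllp, which encodes plasmolipin, rose by 6.42 from 1.30 to 174 RPM. Pmp22, the tetraspan protein altered in Charcot-Marie-Tooth disease, rose by 3.30. Beside these, Mbp TSS 3 stood at 2.63 and Cnp TSS 1 at -0.30.

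In the clones 3 of the 4 myelin membrane genes tested fell and none rose, with a median of -6.14. Pmp22 fell by 8.37 (SE 0.47, adjusted p = 1.54e-05, limma) from 524 to 0.743 RPM, Mal fell by 6.89 and Bcas1 fell by 5.40. Mbp TSS 3, at -6.41, lay within the range of these 3 values, as did Cnp TSS 2, at -6.47, and Cnp TSS 1, at -3.34, lay above them.

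For non-compact myelin, adhesion and node proteins, the class to which CNP belongs, 5 of 11 genes were in the table, and 3 of the 4 tested rose with cAMP (median 1.54). These were Mag, the adhesion molecule facing the axon, at 4.95, the junction protein gene Jam3 at 1.62 and Gldn, a node organizer, at 1.46. In the clones 2 of 4 fell, Mag by 5.14 and Jam3 by 2.02 (median -2.22). Cnp was not counted among them.

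Among 5 of 14 lineage transcription factors in the table, Egr2, the driver of myelination, rose with cAMP by 5.11, Id2 by 3.18 and Id4 by 1.27, and Jun, a repressor of myelin genes, fell by 3.13 (median 1.27). In the clones Sox10 fell by 6.35 and Id2 rose by 1.36 (adjusted p = 0.0308, limma), with 3 not passing (median -0.58). Of 8 of 15 lipid synthesis genes, 6 rose with cAMP (median 0.97), led by the sterol pathway genes Hmgcs1 at 1.97 and Idi1 at 1.46 with the fatty acid supply gene Acly at 1.15 and the squalene synthase gene Fdft1 at 1.02. In the clones limma called none of the 8 (median -1.03), with 5 lower at an unadjusted p under 0.05 and 0, 3 and 3 called lower by the edgeR quasi-likelihood, edgeR exact and DESeq2 tests. Of 4 genes used, of 10 considered, for partners of Mbp and Cnp mRNA or protein, 2 rose with cAMP, Hnrnpa1 by 1.12 and Hnrnpa2b1 by 0.25, both binding the Mbp mRNA, and 1, the tubulin gene Tuba1a, fell by 0.82 (median -0.28). In the clones limma called 0 of these 4 (median -0.28), with 0 at an unadjusted p under 0.05 and 0 by each of the 3 count tests.

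The TSSs most like each main start were ranked by Pearson's r of log2(RPM + 1) over the 14 libraries, among the 2943 TSSs with a mean of at least 10 RPM in a group, which reflects the differences between cell sources as well as the treatments. Of the genes considered here, Rasal2 (r = 0.972), Syt3 (r = 0.967), Hepacam (r = 0.961), Cd48 (r = 0.952) and Plekhb1 (r = 0.952) were closest to Mbp TSS 3. For Cnp TSS 1 they were Gas7 (r = 0.987), Erbb3 (r = 0.984), Col9a3 (r = 0.981), Insc (r = 0.979) and Sox10 (r = 0.979). For Cnp TSS 2, ranked after its values were seen, they were Dbi (r = 0.986), Cmtm5 (r = 0.985), Gm10863 (r = 0.984), Erbb3 (r = 0.984) and Col9a3 (r = 0.983). Between the members, r was 0.949 for Cnp TSS 1 and TSS 2, 0.795 for Mbp TSS 3 and Cnp TSS 2, and 0.721 for Mbp TSS 3 and Cnp TSS 1. For Mbp TSS 3 the nerve and ΔSOX10 libraries lie at opposite ends of the range, whereas for Cnp TSS 2 the primary cell libraries are the highest.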

How the data were processed

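Levels were taken from the deposited table of candidate TSSs, in which the authors give RPM (reads per 1000000 library reads) per TSS and library. Per the study's methods, Tn5Prime reads were trimmed, aligned to rn5, counted by 5′ end and clustered into TSSs with Paraclu, and TSSs were assigned to a gene within 1 kb on the same strand. The submitters' processing notes name cutadapt 1.14, STAR 2.5.2a, SAMtools 1.9, featureCounts in Subread 1.6.1 and edgeR 3.24.3. The table also holds the authors' fold changes and FDR values between groups, which were not used. No other per-sample columns were present.

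Whole reads were recovered from the RPM steps (92.2 to 100% of values within 0.05 reads of a whole number, with 8.59 to 9.35% of values in 4 S16 libraries rounded in the file) and gave the depths and the count tests by edgeR 4.0.16 and DESeq2 1.42.0. The main test was limma 3.58.1 (R 4.3.3) on log2(RPM + 1), within each comparison, over TSSs above 1 RPM in at least 2 of its libraries, with Benjamini-Hochberg adjustment over all TSSs and a threshold of 0.05. Gene totals and the use of TSSs within genes (diffSplice) were fitted likewise. Ratios were compared by exact permutation over libraries. Scripts were tested on simulated data. Groups came from the sample labels. Per the study's methods the nerves, primary cell populations and clones are separate, and nothing says that the parental RNA samples came from separate cultures, so their spread may be technical. Named TSSs are those with a mean of at least 10 RPM in any group, and genes of the lists are named for the 4 largest changes among those called and any called in the opposite direction. Members and lists were chosen with earlier results of these data known. Some genes are not reported here and were left out of the lists, marker sums and rankings, while the fits kept all TSSs. Alternatives were another pseudocount, filter, scaling, count tests, 1 model for all libraries, a replicate block and leaving out each library.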

Additional observations from a re-analysis of the deposited data

Results flagged for a closer look

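Among 19 measures compared over the 4 ΔSOX10 clones, there were 6 in which 1 clone stood far from the other 3. The limit used is passed in about 1 of 20 sets of normal values, and that rate does not hold for TSSs at 0 in 3 clones. A TSS level and its share of the gene rest on the same reads, so the 6 are not separate cases. Clone 1-1 was the distant one in 5. It had Mbp TSS 2 at 1.22 RPM beside 0 RPM in the others, which put the Mbp share outside TSS 3 at 25.8% and that of TSS 3 at 74.2%. It also had Cnp TSS 3 at 1.07 RPM and 2.12% of the Cnp total, beside at most 0.0285 RPM elsewhere. The remaining case was Cnp TSS 1 in clone 2-1, at 35.6 RPM beside 43.4 to 44.6 RPM. The nerve, control, cAMP and parental groups hold fewer than 4 libraries and were not examined in this way.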

How the results depend on the processing

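Over 32 fitted values, 381 of 437 values under an alternative kept direction and side of the threshold, and over 4 counts of called TSSs, 49 of 66 stayed within 1.5 times the reported count. The rise of Mbp TSS 3 with cAMP (2.61 to 2.64 under the other settings) and the falls of Mbp TSS 3 (-6.83 to -5.37), Cnp TSS 1 (-3.37 to -3.19) and Cnp TSS 2 (-8.49 to -4.57) in the clones kept theirs in each alternative run. With all 14 libraries in one model, Cnp TSS 1 (-0.30, adjusted p = 0.170, limma) and Cnp TSS 2 (0.19, adjusted p = 0.685) lost their cAMP calls, and the edgeR exact test did not call Cnp TSS 2 (0.20, adjusted p = 0.163). Leaving out single libraries gave -0.35 to -0.25 and 0.15 to 0.21. In the clones, the use of Cnp TSS 1 against the other Cnp TSSs was 3.13 with a mean of at least 5 RPM required (adjusted p = 0.000618), which leaves fewer TSSs to compare with, 0.30 with a pseudocount of 0.1 and -2.38 with 5 (adjusted p = 2.78e-14), where the cause was not tested. The Cnp ratio of -3.13 passed the threshold with limma over all genes. With cAMP, 4 TSSs rose, against 2 by DESeq2, by edgeR quasi-likelihood, in one model, without a filter and with a pseudocount of 0.1, 1 by the edgeR exact test, and 1 to 3 without single libraries. The 1 that fell became 2 by DESeq2, 0 in one model, and 0 to 1 without single libraries. In the clones 6 fell, against 3 by edgeR quasi-likelihood, which also lost Cnp TSS 3, 3 with a mean of at least 5 RPM, and 4 to 8 without single libraries. Without single libraries, uncalled cAMP values turned sign: Cnp TSS 23 (-1.13 to 0.15, with 0.15 without cAMP replicate 1), TSS 30 (-0.31 to 0.057, with 0.057 without cAMP replicate 1) and TSS 7 (-0.54 to 0.25, with 0.019 without cAMP replicate 3, 0.032 without control replicate 1 and 0.25 without control replicate 2). Same-numbered cAMP and control libraries hardly deviated together (r of 0.0294, 0.00751 and 0.0379), so the numbers were not taken as pairs, and a replicate block changed the call of 0 of 16 results (Mbp TSS 3 at 2.63, with 4 TSSs higher and 1 lower). Fitted fold changes of TSSs near 0 in the clones move with the pseudocount, 1 RPM in the main fit. That lies above the floor of 3 reads there, 0.0763 to 0.0855 RPM.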
